A study of Mus musculus with 8 samples.

Results

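The replication histone genes of mouse chromosome 13 were followed in whole-brain RNA of mice labelled Hfe-/- × Tfr2mut and of mice labelled wild-type. Members were taken by gene symbol, as every array probe for a gene named Hist1h or, in newer naming, H1f, H2ac, H2bc, H3c or H4c on chromosome 13. The annotation holds 57 such genes, and 44 of them had a probe on the array (47 probes), out of 16,593 named genes with 23,978 probes. In 24 of the 44 genes, 1 probe each was detected in all arrays of 1 group or both (detection p under 0.01) and was tested. The other 23 probes, among them a second probe of H2bc4, were detected in 0 arrays, with signals between -19.9 and 51.6 arbitrary units. Of the 24 tested probes, 23 were detected in all 8 arrays, and that of H4c4 in 4 of 4 Hfe-/- × Tfr2mut and 3 of 4 wild-type arrays.

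The core histones H2A, H2B, H3 and H4 form the protein spool around which DNA is wound in the nucleosome, and linker H1 binds the DNA where it enters and leaves the spool. Their replication genes are small, mostly lack introns and are switched on in S phase, when new DNA needs new nucleosomes, whereas replacement variants such as H2A.Z and H3.3 are made throughout the cell cycle. Most replication histone mRNAs end in a stem-loop instead of a poly(A) tail, although some of these genes also give polyadenylated transcripts in cells that have stopped dividing. The labelling kit used for these arrays primes from poly(A) tails, so the signals describe whatever histone RNA that priming could reach.

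The arrays were made to ask how iron loading alters gene expression in the brain. The 4 Hfe-/- × Tfr2mut arrays, called mutant replicates where single arrays are named, came from male AKR mice aged 13 weeks, homozygous for disruptions of Hfe and of transferrin receptor 2 (Tfr2) and fed 2% carbonyl iron for the last 3 weeks. The 4 wild-type arrays came from male AKR mice of the same age on a diet with about 0.02% iron. Genotype and diet therefore cannot be told apart. Both disruptions were inherited, so every brain cell carried them, and Hfe itself lies inside the histone cluster. How much donor DNA came with the disrupted allele was not stated in the sources read.

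On chromosome 13 (GRCm38.p6) the member genes fell into 2 groups. Subcluster 1 spans chr13:21715711-22043658, with 24 genes of which 15 had a probe, and its tested genes start 1659 to 1980 kb from Hfe. Subcluster 2 spans chr13:23531044-23934913, with 32 genes of which 29 had a probe, and its tested genes start 17.8 to 171 kb from Hfe. Hfe occupies chr13:23702034-23710854 within subcluster 2, between H4c3 and H1f2. The remaining member, the pseudogene H2af-ps2, lies far outside both and had no probe.

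Many H2A and H2B genes of the cluster stand back to back and share 1 short stretch of DNA between their start sites. Among genes whose strand was known here, 10 such pairs had at most 1000 bases between the genes, and in 3 of them both genes were tested. H2bc4, next to H2ac6, had no known strand and was not counted. The DNA between those 3 pairs is shown because the H2A partner passed the adjusted threshold in each and the H2B partner did not, and the 250 bases before H4c6 because it was the 1 tested gene outside H2A past the adjusted threshold. Sequences are from RefSeq (GRCm38.p6). Each runs 5′ to 3′ toward the start of the H2A gene or of H4c6, and capitals mark the CCAAT box (CCAAT), the TATA box (TATAAA) and the octamer (ATTTGCAT) on either strand. The stretches are chr13:21753913-21754075 on the minus strand (163 bases), chr13:22035644-22035820 on the minus strand (177 bases), chr13:23574208-23574380 on the plus strand (173 bases) and chr13:23551669-23551918 on the minus strand (250 bases), in the order printed.
H2ac15/H2bc15: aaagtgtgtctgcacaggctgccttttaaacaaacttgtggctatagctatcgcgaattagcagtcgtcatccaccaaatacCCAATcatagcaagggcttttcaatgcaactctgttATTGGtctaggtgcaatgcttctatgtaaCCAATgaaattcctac
H2ac12/H2bc12: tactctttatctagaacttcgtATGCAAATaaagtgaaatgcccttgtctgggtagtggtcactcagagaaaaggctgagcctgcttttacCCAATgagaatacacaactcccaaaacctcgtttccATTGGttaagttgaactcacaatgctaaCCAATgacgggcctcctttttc
H2ac7/H2bc7: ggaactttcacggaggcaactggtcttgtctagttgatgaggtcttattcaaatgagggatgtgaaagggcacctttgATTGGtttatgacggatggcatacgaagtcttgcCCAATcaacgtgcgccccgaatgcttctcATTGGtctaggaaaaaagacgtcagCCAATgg
H4c6: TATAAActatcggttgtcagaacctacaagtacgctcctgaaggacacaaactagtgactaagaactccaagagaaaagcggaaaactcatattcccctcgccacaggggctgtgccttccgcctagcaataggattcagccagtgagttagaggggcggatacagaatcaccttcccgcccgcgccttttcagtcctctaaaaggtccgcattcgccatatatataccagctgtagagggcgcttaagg

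These stretches held 3 CCAAT boxes between H2ac15 and H2bc15, 3 between H2ac12 and H2bc12 and 4 between H2ac7 and H2bc7, and 1 octamer, in the pair H2ac12 and H2bc12. The 250 bases before H4c6 held 1 match to TATAAA and 0 CCAAT boxes. That match opens the printed stretch, at the end farthest from the start of H4c6. Among the 52 promoter windows of the cluster (51 genes, 250 bases before to 50 after the start), 84.6% held CCAAT, against 37.4% of all 32,851 windows, and by type the share was 100% in H1, H2A, H2B and H3 and 27.3% in H4. TATAAA occurred in 59.6% of cluster windows and 13.6% of all windows. The octamer, the sequence bound by the Oct-1 factor in H2B promoters, occurred in 21.2% of cluster windows and 1.74% of all windows, with 38.5% in H2A, 40% in H2B and 0 in H1, H3 and H4. Because paired genes share sequence, the H2A and H2B shares are not independent, and a match of letters is not a measured binding site.

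Signals are intensities in arbitrary units after the cubic-spline normalization of the authors, and changes are log2 differences, Hfe-/- × Tfr2mut minus wild-type. Tests used limma on 11,204 detected probes, with Benjamini-Hochberg adjustment over all of them. At an adjusted p under 0.05, 7 of the 24 tested members were higher in arrays labelled Hfe-/- × Tfr2mut and 0 were lower, where the background was 0.143% of all tested probes higher (16 probes) and 0.0268% lower (3 probes). The members past this threshold numbered 3 without mutant replicate 1 and 4 without mutant replicate 4. Before adjustment, 10 members were higher and 1 lower (p under 0.05), against 6.72% and 6.02% of all tested probes. Among the 10 was H4c4, which passed the filter through the Hfe-/- × Tfr2mut group alone. Where detection in all arrays was required, 9 members were higher. The 4 Hfe-/- × Tfr2mut and 4 wild-type signals did not overlap for 8 members on the high side and 1 on the low side, against 4.32% and 3.53% of all tested probes. The median change of the members was 0.14, with 22 of 24 positive, and that of all tested probes was -0.00, with 49.6% positive. On the average-normalized table, where the median of all probes shifted to -0.09, 17 of 24 members were positive.

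**Figure D1:**
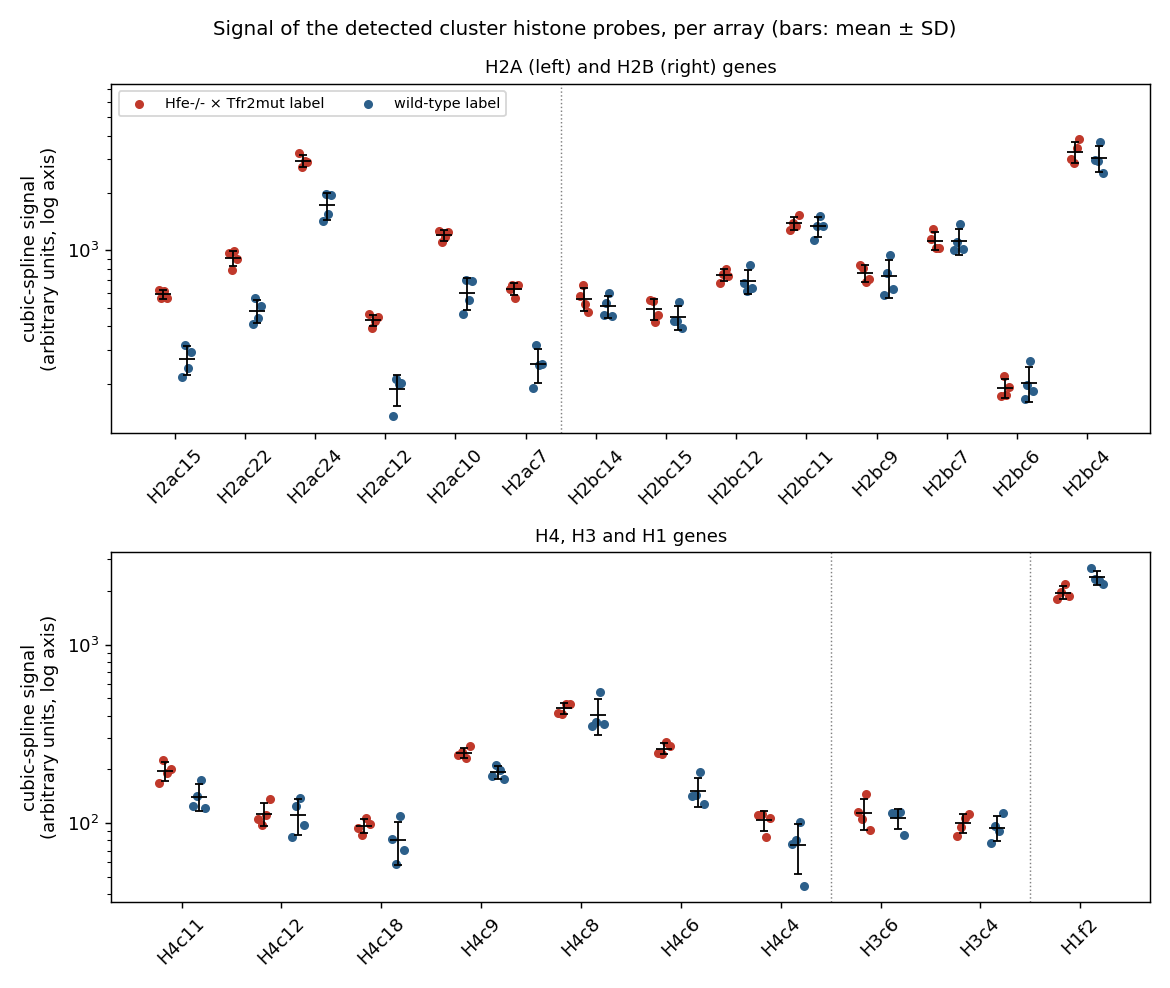
Cubic-spline signal (arbitrary units, log axis) of the 24 detected histone probes in each of the 4 Hfe-/- × Tfr2mut arrays (red) and 4 wild-type arrays (blue), with black bars for the mean ± SD. Genes of 1 type are ordered along chromosome 13. All 6 H2A genes separate by label without overlap, as in H2ac7 (562 to 658 in the Hfe-/- × Tfr2mut arrays and 190 to 318 in the wild-type arrays), whereas the groups overlap for each of the 8 H2B genes.

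The 7 members past the adjusted threshold comprised all 6 tested H2A genes and 1 of 7 tested H4 genes. H2A, the partner of H2B in the dimer that completes the nucleosome, rose in both subclusters, with 4 of 4 tested genes in subcluster 1 and 2 of 2 in subcluster 2. The 6 changes ranged from 0.79 to 1.33 with a median of 1.09. Without H2A, 1 of 18 tested members was past the adjusted threshold and the median change was 0.11.

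The H2A probe with the largest change, H2ac7, gave 628, 658, 562 and 657 in the Hfe-/- × Tfr2mut arrays and 190, 318, 251 and 253 in the wild-type arrays. Every Hfe-/- × Tfr2mut array lay above the highest wild-type array. The mean was 626 ± 45.1 in the Hfe-/- × Tfr2mut arrays and 253 ± 52.1 in the wild-type arrays (SD, n = 4 each), a 2.51-fold ratio and a log2 change of 1.33 (SE 0.14, limma adjusted p = 0.0020).

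H2ac12 gave 462, 394, 424 and 445 in the Hfe-/- × Tfr2mut arrays and 136, 212, 200 and 203 in the wild-type arrays. Its log2 change was 1.22 (SE 0.14, limma adjusted p = 0.0032), and wild-type replicate 1 stood below the other wild-type arrays. For H2ac15 the signals were 622, 565, 614 and 562 in the Hfe-/- × Tfr2mut arrays, against 216, 318, 242 and 295 in the wild-type arrays, with a log2 change of 1.16 (SE 0.13, limma adjusted p = 0.0020). Both genes lie in subcluster 1 (1666 and 1948 kb from Hfe), and neither lost the call when any 1 array was left out.

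H2ac10, 168 kb from Hfe in subcluster 2, gave 1265, 1101, 1182 and 1257 in the Hfe-/- × Tfr2mut arrays and 462, 702, 546 and 688 in the wild-type arrays. Its log2 change was 1.02 (SE 0.14, limma adjusted p = 0.011), and the adjusted p was 0.058 without mutant replicate 1 and 0.053 without mutant replicate 4. H2ac22 gave 964, 794, 988 and 900 in the Hfe-/- × Tfr2mut arrays, against 411, 564, 443 and 513 in the wild-type arrays, a log2 change of 0.92 (SE 0.12, limma adjusted p = 0.0093). Leaving out mutant replicate 1 ended that call, at an adjusted p of 0.053. In neither gene did the groups overlap.

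The smallest H2A change belonged to H2ac24, whose probe gave 3258, 2740, 2929 and 2904 in the Hfe-/- × Tfr2mut arrays and 1424, 1982, 1551 and 1953 in the wild-type arrays. The groups did not overlap, and the log2 change was 0.79 (SE 0.13, limma adjusted p = 0.040). This call rested on nearly every array. The adjusted p was 0.051 to 0.16 without any 1 of mutant replicates 1, 2, 3 and 4 and wild-type replicates 1, 2 and 3, and only leaving out wild-type replicate 4 kept it under 0.05 (0.047).

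All 7 calls depended on the test and the filter, since an equal-variance test of each probe alone gave the members adjusted p of 0.094 to 0.21, and testing all 25,697 probes without a detection filter gave 0.11 to 0.27. The 5 H2A members of the array that were not tested (H2ac11, H2ac8, H2ac6, H2ac4 and H2ac1) were detected in 0 arrays. Coding sequences of H2A genes are nearly identical and probe sequences were not used here, so a signal cannot be assigned to 1 H2A gene with certainty, and the 6 probes may not be 6 independent measurements.

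**Figure D2:**
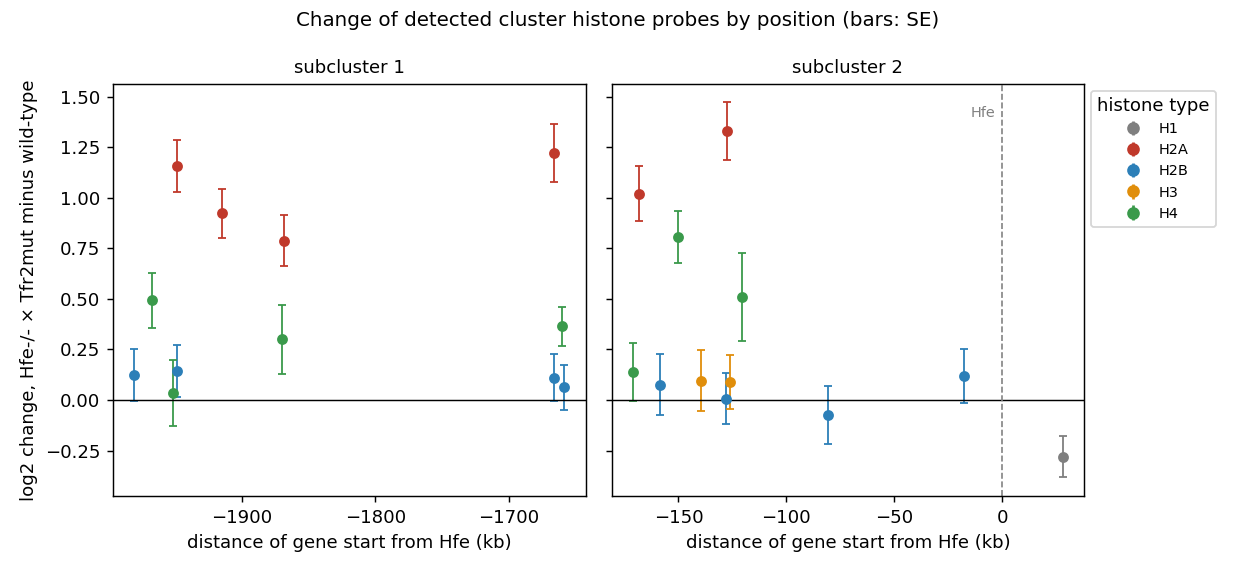
Log2 change (Hfe-/- × Tfr2mut minus wild-type, bars SE) of the 24 detected histone probes against the distance of each gene start from Hfe in kb, in subcluster 1 (left) and subcluster 2 (right), coloured by histone type. The H2A genes lie at 0.79 to 1.33 at distances of 128 to 1948 kb, above every change of another type, except that H4c6 (0.80) exceeds H2ac24 (0.79).

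H2B pairs with H2A in the same dimer. Of 8 tested H2B genes, 0 passed the adjusted or the unadjusted threshold, the changes ranged from -0.07 to 0.14 with a median of 0.09, and the groups overlapped in every gene. H2bc4, the H2B gene nearest to Hfe (17.8 kb), gave 3001, 2891, 3458 and 3829 in the Hfe-/- × Tfr2mut arrays and 2988, 2940, 3695 and 2550 in the wild-type arrays, a log2 change of 0.12 (SE 0.13). H2bc11 gave 1286, 1398, 1344 and 1534 in the Hfe-/- × Tfr2mut arrays, against 1137, 1346, 1517 and 1344 in the wild-type arrays (0.06, SE 0.11). In both genes the highest wild-type array was replicate 3, as in all 8 H2B genes.

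The changes of the other H2B genes were 0.13 for H2bc14, 0.14 for H2bc15 and 0.11 for H2bc12 in subcluster 1. In subcluster 2 they were 0.08 for H2bc9, 0.01 for H2bc7 and -0.07 for H2bc6, with standard errors of 0.13 to 0.15. The sign of H2bc11, H2bc9, H2bc7 and H2bc6 turned under at least 1 other setting or without 1 array, so no direction is given for H2B.

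The 3 back-to-back pairs set H2A and H2B side by side over shared promoter DNA. The comparison was chosen after the values of the members had been seen, so it is a description with no test. As an H2A signal cannot be assigned to 1 gene with certainty, the 3 pairs may not be 3 independent cases. For each array the log2 signal of H2B was subtracted from that of H2A, and this difference was compared between the groups. In the pair H2ac15 and H2bc15, H2bc15 gave 552, 540, 420 and 459 in the Hfe-/- × Tfr2mut arrays and 427, 428, 537 and 393 in the wild-type arrays, and the change of H2ac15 exceeded that of H2bc15 by 1.01 (SE 0.22).

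H2bc12 gave 676, 755, 803 and 735 in the Hfe-/- × Tfr2mut arrays, against 673, 616, 840 and 637 in the wild-type arrays, and the change of H2ac12 exceeded its own by 1.11 (SE 0.20). H2bc7 gave 1141, 1289, 1034 and 1026 in the Hfe-/- × Tfr2mut arrays, against 1001, 1101, 1375 and 1012 in the wild-type arrays, and the change of H2ac7 exceeded its own by 1.32 (SE 0.17). In all 3 pairs each Hfe-/- × Tfr2mut array lay above every wild-type array in this difference. Under the other normalizations, floors and detection filters and without any 1 array, the difference stayed positive in each pair, at 0.88 to 1.12 for H2ac15 and H2bc15, 0.97 to 1.23 for H2ac12 and H2bc12 and 1.23 to 1.44 for H2ac7 and H2bc7.

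**Figure D3:**
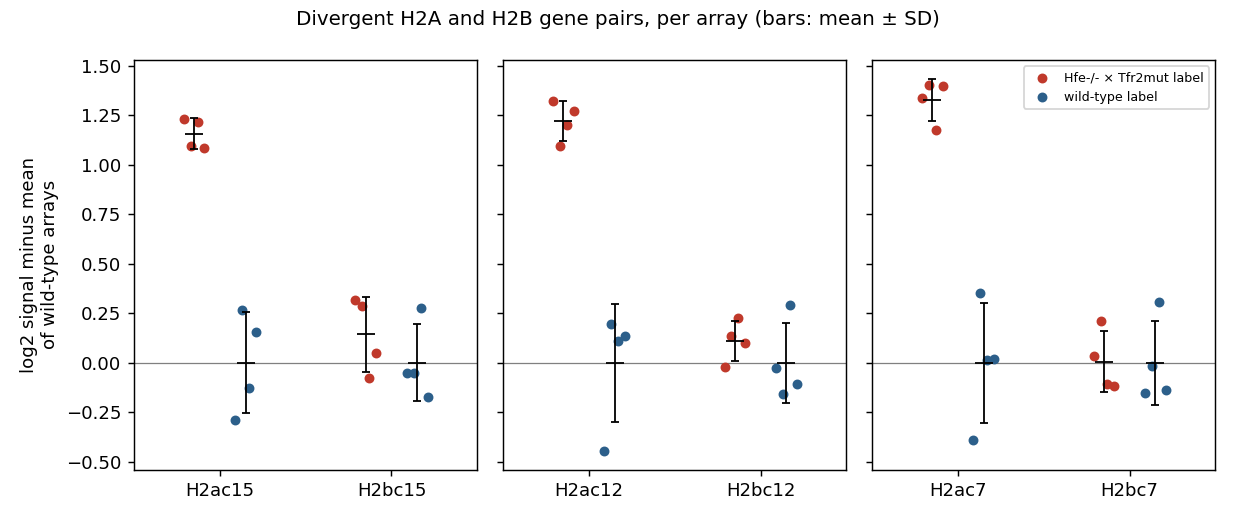
Log2 signal minus the mean of the wild-type arrays for the H2A gene (left in each panel) and the H2B gene (right) of the 3 back-to-back pairs, in 4 Hfe-/- × Tfr2mut arrays (red) and 4 wild-type arrays (blue), with bars for the mean ± SD. The Hfe-/- × Tfr2mut mean lies at 1.16, 1.22 and 1.33 for H2ac15, H2ac12 and H2ac7, and at 0.14, 0.11 and 0.01 for H2bc15, H2bc12 and H2bc7.

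H4 pairs with H3 at the core of the nucleosome. Of 7 tested H4 genes, 1 passed the adjusted and 4 the unadjusted threshold, all higher in the Hfe-/- × Tfr2mut arrays. Of all tested probes, 0.143% and 6.72% were higher at these thresholds. The median change of the H4 genes was 0.36. The 7 changes were positive, from 0.03 to 0.80, but that of H4c12 turned negative in 5 of 19 other settings, the average-normalized table (-0.13) among them. H4c6, in subcluster 2, gave 247, 243, 282 and 271 in the Hfe-/- × Tfr2mut arrays and 141, 143, 192 and 128 in the wild-type arrays. The groups did not overlap, and its log2 change was 0.80 (SE 0.13, limma adjusted p = 0.040). The adjusted p was 0.080 on the average-normalized table. It was 0.094 to 0.18 without any 1 of mutant replicates 1, 2, 3 and 4 and wild-type replicates 1, 2 and 4, and 0.0055 without wild-type replicate 3.

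H4c9 gave 241, 249, 232 and 269 in the Hfe-/- × Tfr2mut arrays and 183, 213, 198 and 176 in the wild-type arrays, with no overlap (log2 change 0.36, SE 0.10, limma adjusted p = 0.22). H4c11 gave 168, 226, 190 and 201 in the Hfe-/- × Tfr2mut arrays, against 124, 142, 174 and 121 in the wild-type arrays, where the ranges overlapped (0.49, SE 0.14, limma adjusted p = 0.24). H4c4 gave 111, 112, 83.4 and 107 in the Hfe-/- × Tfr2mut arrays, against 75.9, 79.9, 101 and 44.2 in the wild-type arrays (0.51, SE 0.22, limma adjusted p = 0.37). These 3 genes passed at the unadjusted threshold only, where 6.72% of all tested probes were higher. Groups without overlap on the high side, as in H4c9, occurred in 4.32% of all tested probes. The H4c4 probe was detected in 4 of 4 Hfe-/- × Tfr2mut and 3 of 4 wild-type arrays. Its call therefore rests on a filter passed through the Hfe-/- × Tfr2mut group alone. The changes of H4c18 (0.30), H4c8 (0.14) and H4c12 (0.03) passed neither threshold.

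H3 was barely measured, since 2 of its 7 genes with a probe were detected. H3c6 gave 115, 105, 145 and 91.6 in the Hfe-/- × Tfr2mut arrays and 113, 111, 115 and 85.0 in the wild-type arrays, a log2 change of 0.09 (SE 0.15). H3c4 gave 84.5, 95.3, 107 and 113 in the Hfe-/- × Tfr2mut arrays, against 77.2, 96.6, 90.0 and 113 in the wild-type arrays, also 0.09 (SE 0.14). Both ranges overlapped, and the lowest detected signals of the arrays were 57.0 to 69.4 in the Hfe-/- × Tfr2mut group and 49.6 to 61.0 in the wild-type group, so these signals stood close to the limit of detection.

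Among the 6 linker histone genes with a probe, H1f2, the first member gene beyond Hfe (28.0 kb), was the 1 detected. It gave 1791, 1975, 2174 and 1884 in the Hfe-/- × Tfr2mut arrays and 2676, 2334, 2311 and 2192 in the wild-type arrays. Each Hfe-/- × Tfr2mut array lay below the lowest wild-type array, a log2 change of -0.28 (SE 0.10). It passed before but not after adjustment (limma adjusted p = 0.33), and without mutant replicate 1 it passed neither threshold. The testis gene H1f6 and H1f1, H1f3, H1f4 and H1f5 were detected in 0 arrays.

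Arrays of 1 group also varied together by histone type. Wild-type replicate 1 was the lowest and wild-type replicate 2 the highest wild-type array in 6 of 6 H2A probes, whereas wild-type replicate 3 was the highest in 8 of 8 H2B probes and 6 of 7 H4 probes. After the group means were removed, the median correlation over the 8 arrays was 0.81 between H2A probes (15 pairs, 0.57 to 0.96), 0.57 between H2B probes (28 pairs) and 0.59 between H4 probes (21 pairs). Between H2A and H2B probes it was -0.08 (48 pairs), and between all tested probes -0.00. These values are a description over 8 arrays, in which all probes of an array share its RNA, and probe sequences were not compared.

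The array also held 26 histone genes outside the rule, with 31 probes, of which 14 probes of 13 genes were tested. None passed the adjusted threshold in limma, and 3 were higher before adjustment (6.72% of all tested probes), all of them replication H2A genes of chromosome 3. H2ac20 gave 4064, 4046, 3563 and 3766 in the Hfe-/- × Tfr2mut arrays and 2234, 2834, 2872 and 2697 in the wild-type arrays (log2 change 0.54, SE 0.11, limma adjusted p = 0.13). The changes were 0.57 for H2ac21 (limma adjusted p = 0.24) and 0.25 for H2ac18 (limma adjusted p = 0.34). H2ac21 was detected in 4 of 4 Hfe-/- × Tfr2mut and 2 of 4 wild-type arrays. It therefore passed the filter through the Hfe-/- × Tfr2mut group alone. In all 3 genes the groups did not overlap, as for 4.32% of all tested probes on the high side. Every change lay below the smallest of the cluster H2A changes.

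H2B and H3 genes of chromosome 3 gave -0.12 for H2bc18, 0.09 for H3c13 and 0.18 for H3c14. Among replacement variants, the H2A variants gave 0.01 for H2ax, a variant known for marking DNA breaks, 0.12 for H2az1 and -0.04 for Macroh2a1. The H3.3 genes H3f3a and H3f3b gave -0.04 and 0.05, and the centromere variant Cenpa gave 0.29 (limma adjusted p = 0.40). None of these passed the unadjusted threshold.

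**Figure D4:**
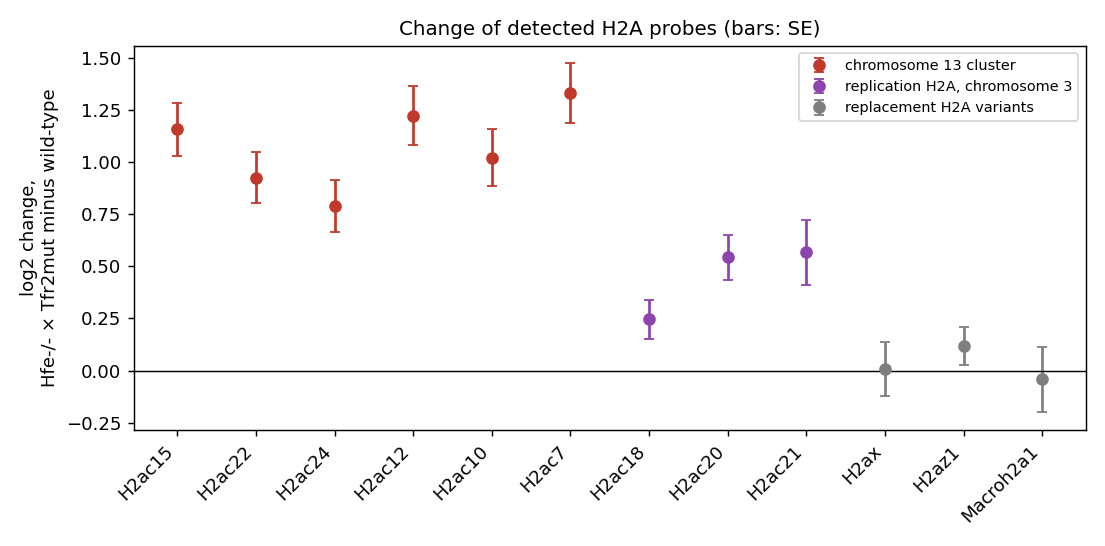
Log2 change (Hfe-/- × Tfr2mut minus wild-type, bars SE) of the detected H2A probes, in the chromosome 13 cluster (red, in order along the chromosome), among replication genes of chromosome 3 (purple) and among replacement variants (grey). The cluster genes lie at 0.79 to 1.33, the chromosome 3 genes at 0.25 to 0.57 and the variants at -0.04 to 0.12. H2ac21 (0.57) was detected in 4 of 4 Hfe-/- × Tfr2mut and 2 of 4 wild-type arrays.

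Genes that supply cells with histones, from transcription to 3′ end processing and chaperoning, were read as a list. Of 24 listed genes, 21 had a probe and 10 were tested, of which 2 were higher and 0 lower before adjustment (6.72% and 6.02% of all tested probes) and 0 past the adjusted threshold, with a median over probes of 0.05. Lsm10, a protein of the U7 particle that cuts the 3′ end of histone mRNAs, gave 0.33 (limma adjusted p = 0.24). Asf1a, a chaperone of H3 and H4, gave 0.26 (limma adjusted p = 0.34). In both genes the groups did not overlap, as for 4.32% of all tested probes on the high side. Cpsf1, the largest subunit of the cleavage and polyadenylation specificity factor, gave -0.32 (limma adjusted p = 0.46), passing neither threshold.

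Of 27 genes of S phase and cell division, 22 had a probe and 5 were tested. Among them 0 were higher and 1 was lower before adjustment (6.72% and 6.02% of all tested probes), with a median of -0.06. That gene was Rrm1, the large subunit of ribonucleotide reductase, at -0.34 (limma adjusted p = 0.38). Pcna, the sliding clamp of DNA polymerase, gave -0.18, and Mcm5, a subunit of the replicative helicase, gave 0.19. The other 17 genes with a probe did not pass the detection filter.

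Inside the bounds of the cluster, 43 other genes had a probe and 3 were tested. The detected Hfe probe gave 337, 324, 314 and 356 in the arrays labelled Hfe-/- × Tfr2mut and 135, 129, 123 and 140 in the wild-type arrays, a log2 change of 1.34 (limma adjusted p = 2.29e-05). It was higher where the label says the gene is disrupted, and no source read says where in the gene this probe lies, so it checks neither the disruption nor the labels. A second Hfe probe was detected in 0 arrays. Zfp322a gave 0.35, past the unadjusted threshold only (limma adjusted p = 0.32), and Zfp184 gave 0.08. Before adjustment, 2 of these 3 tested genes were therefore higher, against 6.72% of all tested probes.

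Arrays had 11,188 to 11,751 detected probes in the Hfe-/- × Tfr2mut group and 11,568 to 12,192 in the wild-type group. Brain markers were present, with 3 of 5 listed neuron genes, 5 of 5 astrocyte genes and 4 of 5 oligodendrocyte genes tested, whereas 0 of 4 lymphocyte genes with a probe were tested. Both tested red blood cell genes, Hba-a1 (1.06) and Hbb-b2 (1.32), were higher at the unadjusted threshold, and their summed signal ran from 1706 to 4916 in the Hfe-/- × Tfr2mut arrays and from 1210 to 2203 in the wild-type arrays. The Hbb-b2 probe was detected in 4 of 4 Hfe-/- × Tfr2mut and 3 of 4 wild-type arrays. That probe therefore passed the filter through the Hfe-/- × Tfr2mut group alone. Of 3 tested endothelial genes, 2 were lower (Flt1, -0.41, and Slco1a4, -0.92), with summed signals of 1722 to 2504 in the Hfe-/- × Tfr2mut arrays and 2390 to 2661 in the wild-type arrays. Of 4 tested genes of newborn neurons and progenitors, 0 were higher and Nes (-0.98) was lower, with summed signals of 1268 to 1708 in the Hfe-/- × Tfr2mut arrays and 1426 to 1995 in the wild-type arrays. The tested Slco1a4 and Nes probes were each detected in 1 of 4 Hfe-/- × Tfr2mut and 4 of 4 wild-type arrays. They passed the filter through the wild-type group alone, and a second probe of each gene was detected in 0 arrays. In the other marker lists, 1 of 3 tested neuron, 1 of 5 astrocyte and 1 of 4 oligodendrocyte genes were lower. Higher were 1 of 3 tested oligodendrocyte precursor and 1 of 4 microglia genes, and the 5 tested choroid plexus genes held 1 of each. The probe of the higher oligodendrocyte precursor gene was detected in 4 of 4 Hfe-/- × Tfr2mut and 3 of 4 wild-type arrays. It too passed the filter through the Hfe-/- × Tfr2mut group alone. All these marker calls were before adjustment only, where 6.72% of all tested probes were higher and 6.02% lower. The part of these cell types in the histone signals was not tested, and in whole-brain RNA more cells of a type and more RNA per cell cannot be told apart.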

How the data were processed

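Whole-brain total RNA in 8 samples, 4 per group, was labelled with the TotalPrep kit and hybridised to 1 Illumina MouseRef-8 v2 BeadChip, mutant and wild-type labels alternating along its 8 positions. The authors subtracted background in GenomeStudio and deposited intensity values without normalization, after average and after cubic-spline normalization, each with a detection p-value per probe. The cubic-spline table was used here, with 0 of its columns left without a sample. Signals under 10 were set to 10 and log2-transformed, and probes detected throughout 1 group or both (detection p under 0.01) were fitted with limma 3.58.1 in R 4.3.3 (2 groups, no covariate, Benjamini-Hochberg over 11,204 probes), after the code had been tested on simulated data. For the 3 gene pairs the difference of log2 signals is given with its SE and no test. The number of arrays, 4 per group, limits the precision.

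RefSeq annotation (GRCm38.p6) named 23,962 probes through the Entrez identifier and 16 through the platform annotation, and 1,719 of 25,697 were left without a name. Subclusters were split where neighbouring genes start over 0.5 Mb apart. The members and lists were chosen with earlier results of these data known. Every cluster gene with a detected probe is named, and from each other list at most 3 genes of lowest p were to be named. Marker lists of neurons, glia and choroid plexus are given by counts alone, and some other genes were named after their values were seen. Labels do not tie arrays to single mice, so p-values measure the spread between samples. Alternatives covered the other tables, floors of 1 and 30, the detection filter, the chip position, the replicate number as a block and leaving out each array. Protein sequences were not used here.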

Additional observations from a re-analysis of the deposited data

Results flagged for a closer look

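In 4 of 48 groups of 4 arrays (24 detected histone probes, 2 groups each), 1 array stood apart from the other 3 by Dixon's criterion, which chance alone meets in about 1 in 20 groups. H3c6 was lowest in wild-type replicate 4, at 85.0 arbitrary units, and H4c8 highest in wild-type replicate 3, at 541. H4c4 was lowest in mutant replicate 3, at 83.4. H2ac12 was lowest in wild-type replicate 1, at 135.5, and without that array its log2 change was 1.07, still past the adjusted threshold.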

How the results depend on the processing

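Over the settings tried, the 7 called members kept a positive change, with 0.67 (H4c6) as the lowest and 1.45 (H2ac7) as the highest. H2ac15, H2ac12 and H2ac7 stayed past the adjusted threshold in 17 of 19 other settings, H2ac22 in 15, H2ac10 in 14, H2ac24 in 7 and H4c6 in 6. Over 8 fits that each left out 1 array, 3 to 6 members and 3 to 6 H2A members passed, with 3 and 3 without mutant replicate 1 and 4 members without mutant replicate 4. In those fits 14 to 26 of all probes passed, 9 to 12 members were higher and 0 to 1 lower at the unadjusted p, and the median change was 0.13 to 0.26. Without a detection filter 0 members, 0 H2A members and 7 of all probes passed, and with an equal-variance test 0, 0 and 8. In the same fits 10 and 9 members were higher before adjustment. Requiring detection in all arrays left 12 of all probes.

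Replicate numbers are shared between the groups, but same-numbered arrays deviated together in no regular way (correlations of 0.10, -0.14, -0.35 and 0.10), so they share only a number. With the replicate block 3 members passed, all of them H2A.

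Before adjustment, 356 probes were higher and 1489 lower after average normalization, against 753 and 674 after cubic-spline normalization. Changes of small members turned sign after average normalization, to -0.1319 (H4c12), -0.0083 (H2bc9), -0.0554 (H3c6), -0.0707 (H2bc7) and -0.0732 (H3c4), and to -0.0167 (H4c12) with the chip position as a covariate. Without 1 array, H4c12 ran from -0.0923 to 0.1504, H2bc7 from -0.0625 to 0.1078, H3c6 from -0.0268 to 0.1927, H2bc9 from -0.0228 to 0.2122, H2bc11 from -0.0132 to 0.1254, H3c4 from -0.0018 to 0.1814 and H2bc6 from -0.1611 to 0.0589. The cause of these turns was not tested. H4c4, H4c18 and H4c12, near the lowest detected signal, had standard errors of 0.22, 0.17 and 0.17.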
